A study of Rattus norvegicus with 70 samples.

Results

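The genes described here handle sterols in 3 fat depots of adolescent Sprague-Dawley rats: brown (BAT), subcutaneous (SAT) and visceral (VAT). They were chosen by function and matched from NCBI gene numbers to rat symbols, which gave 33 genes of 15319 in each of 6 count tables: 19 enzymes of sterol synthesis, 4 regulators of that pathway, 3 carriers of sterol inside the cell, 5 genes of the liver X receptors and efflux, and 2 genes of esterification and uptake from high-density lipoprotein. In the PCB 52 groups, rats breathed air passed over beads coated with PCB 52 (a tetrachlorinated biphenyl found in indoor and outdoor air) through a nose-only system for 4 h a day over 28 days. Males were 39 days old and females 42 days old when exposure began, and the sham groups are the labelled controls. The 70 libraries came from 24 animals and fall into 12 groups of depot, sex and treatment, with 6 libraries each except for 5 in male VAT PCB 52 and 5 in female SAT sham. Values are CPM, read counts scaled to the size of each library with edgeR's TMM factors, and differences are log2 fold changes with their standard error (SE).

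Cells build cholesterol from acetyl-CoA through mevalonate, isoprenoids, squalene and lanosterol. When sterol is scarce in the endoplasmic reticulum, SCAP carries SREBP2, the product of Srebf2, to the Golgi for cleavage, and the released fragment turns on genes of synthesis. INSIG1 and INSIG2 hold SCAP back when sterol is plentiful. Oxysterols activate the liver X receptors Nr1h3 and Nr1h2, which turn on the exporters Abca1 and Abcg1 and the ubiquitin ligase Mylip. White adipocytes store much of the body's free cholesterol and take most of it from lipoproteins.

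Promoters of 4 members are printed because Idi1 and Soat1 had the highest ratios in the library that stood furthest apart, and Hmgcs1 and Insig1 differed between depots and between the sexes. Each is the 250 bases before the annotated start, 5′ to 3′ on the gene's own strand, from RefSeq on GRCr8, and capitals mark CCAAT or its reverse complement ATTGG, the box bound by NF-Y. The promoters lie at chr17:66547525-66547774 (minus strand) for Idi1, chr2:53382054-53382303 (plus) for Hmgcs1, chr13:71147673-71147922 (minus) for Soat1 and chr4:8057770-8058019 (minus) for Insig1.
Idi1: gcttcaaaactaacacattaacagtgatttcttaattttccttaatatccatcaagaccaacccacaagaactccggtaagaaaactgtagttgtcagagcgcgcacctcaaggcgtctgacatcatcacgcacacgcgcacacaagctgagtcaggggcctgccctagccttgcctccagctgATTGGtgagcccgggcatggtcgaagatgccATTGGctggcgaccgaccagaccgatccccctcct
Hmgcs1: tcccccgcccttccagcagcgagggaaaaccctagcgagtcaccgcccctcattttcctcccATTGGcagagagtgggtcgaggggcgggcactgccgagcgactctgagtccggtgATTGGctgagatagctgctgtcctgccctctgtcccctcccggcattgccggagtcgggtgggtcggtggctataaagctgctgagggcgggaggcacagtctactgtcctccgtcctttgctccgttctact
Soat1: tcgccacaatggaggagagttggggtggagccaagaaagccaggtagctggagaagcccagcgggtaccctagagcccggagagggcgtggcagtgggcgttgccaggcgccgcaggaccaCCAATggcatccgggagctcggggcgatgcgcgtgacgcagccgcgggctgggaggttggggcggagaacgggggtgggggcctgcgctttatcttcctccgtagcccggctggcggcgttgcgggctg
Insig1: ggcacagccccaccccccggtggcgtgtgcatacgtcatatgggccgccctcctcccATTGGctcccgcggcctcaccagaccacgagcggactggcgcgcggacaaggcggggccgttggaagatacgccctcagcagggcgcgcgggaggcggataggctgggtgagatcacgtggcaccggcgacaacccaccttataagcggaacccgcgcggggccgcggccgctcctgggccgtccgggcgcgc
CCAAT, searched on both strands, occurred in the promoters of 13 of the 16 synthesis enzymes with an entry (81.2%) and of 19 of 27 members with an entry (70.4%). It occurred in 4294 of 12198 promoters of all genes in the tables (35.2%). TCACNCCAC, one spelling of the sterol regulatory element, was found in 0 of 27 members and in 1.00% of all promoters. CACGTG, an E-box that SREBP factors can also bind, was found in 4 of 27 members (14.8%) and in 7.59% of all promoters. A match is only a run of letters in this window. Pmvk, Fdft1, Sqle, Stard4, Abcg1 and Scarb1 had no entry and are named only.

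Total counts ran between 4604116 and 9707132 per library, and all 33 members passed the filter on low counts in every comparison. A count of 3 corresponded to between 0.294 and 0.724 CPM. Some libraries stood apart from the others of their sex and depot. Male SAT PCB 52 animal 19 had 25 members above all of the other 11 male SAT libraries. Female SAT sham animal 8 had 11 members above and 17 below all other female SAT libraries, with 4211 genes at 0. Male VAT sham animal 11 had 10 members above and 4 below, and male VAT PCB 52 animal 13 had 7 above and 2 below. In animal 13, 262 of 269 well-covered genes on chromosome X were at 0, Nsdhl and Ebp among them, and so were 244 of 367 on chromosome 9. Whether rows were lost from that library's counts was not tested. These libraries are in every fit below, and the values without them are given where they matter. Brown adipocyte markers summed to between 6064 and 17367 CPM in female BAT sham and between 19.8 and 50.4 CPM in female SAT sham. Among the BAT libraries, female PCB 52 animal 24 was the lowest, at 341 CPM.

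**Figure D1:**
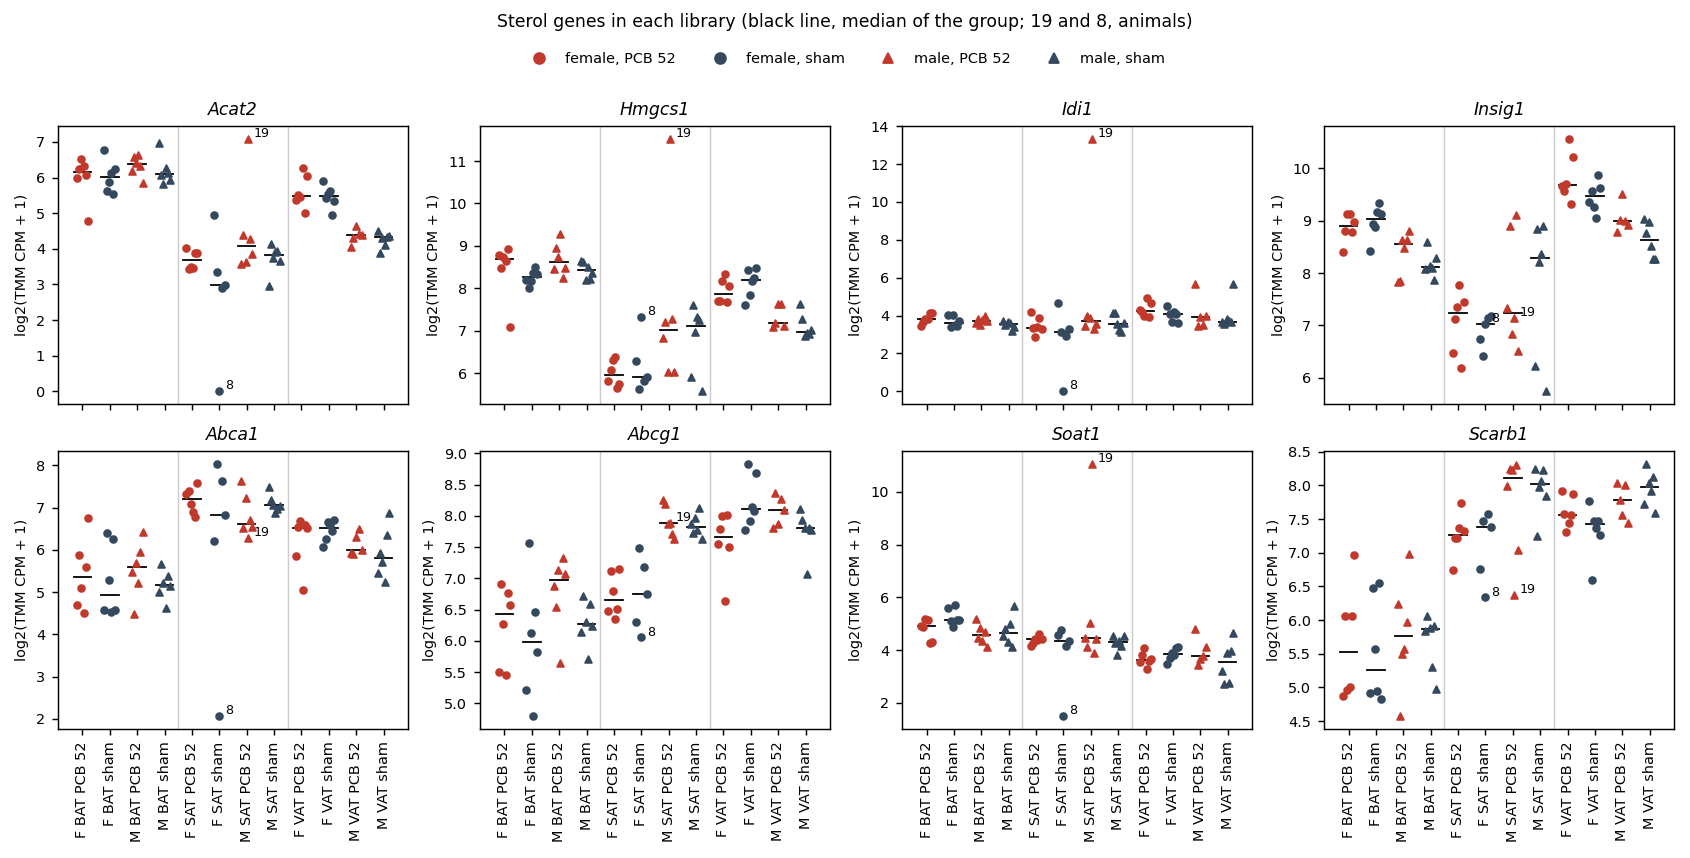
Level of 8 members in each of the 70 libraries, as log2(TMM CPM + 1), by depot, sex (F, M) and treatment; points are libraries and black lines are group medians. Acat2 and Hmgcs1 are lower in most SAT libraries than in BAT, Abca1 is the reverse, and animal 19 stands above all other male SAT libraries for Acat2, Hmgcs1, Idi1 and Soat1.

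In sham rats of both sexes, Acat2 and Hmgcs1, which act at the head of sterol synthesis, were higher in brown than in subcutaneous fat, and Scarb1 and Mylip were lower. Acat2, which joins acetyl-CoA units at the head of the pathway, ran between 45.2 and 109 CPM (median 63.6) in female BAT sham. In female SAT sham its values were 0, 6.44, 6.88, 9.10 and 29.9 CPM. The 2 groups did not overlap, and the log2 fold change was 2.67 (SE 0.61, edgeR adjusted p 0.00177). In males Acat2 ran between 55.4 and 123 CPM (median 67.8) in BAT sham, against 6.72 to 16.6 CPM (median 13.2) in SAT sham. That was a log2 fold change of 2.65 (SE 0.22, adjusted p 2.06e-08). Hmgcs1, the synthase that makes HMG-CoA, ran between 258 and 360 CPM (median 308) in female BAT sham. In female SAT sham it measured 48.7, 55.0, 59.3, 77.1 and 159 CPM. Every BAT library was above every SAT library, with a log2 fold change of 1.95 (SE 0.28, adjusted p 2.51e-05). In males the Hmgcs1 difference was 1.57 (SE 0.28, adjusted p 0.000161).

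Over the whole set, 8 members were higher and 8 lower in BAT than in SAT among females. Over all 11799 genes tested, 20.3% were higher and 27.3% lower, 47.6% in all. Among males 10 members were higher and 7 lower, against 28.0% and 27.3% of 11580 genes, 55.3% in all, so in both sexes the share of members called was close to that of all genes. Of the 19 synthesis enzymes, 4 were higher and 3 lower in females, and 8 were higher and 2 lower in males. The median log2 fold change of the enzymes was 0.35 in females and 0.33 in males, beside -0.14 and -0.04 over all genes. Nsdhl, which removes a C4 methyl group from sterol intermediates, and Hsd17b7, which acts in the same demethylation, were higher in both sexes. Their log2 fold changes were 1.00 (SE 0.30) and 1.04 (SE 0.36) in females, where the Hsd17b7 call ended in 2 of 17 leave-one-out fits (adjusted p up to 0.0551). Dhcr7, which reduces 7-dehydrocholesterol, and Ggps1, which makes geranylgeranyl diphosphate for protein prenylation, were lower in BAT in both sexes, and the female Ggps1 call ended in 4 of 17 leave-one-out fits (adjusted p up to 0.0946). In males Tm7sf2 (1.47, SE 0.48), Mvd (0.99, SE 0.25) and Fdps (0.96, SE 0.22) were also higher. Dhcr7 ran between 12.3 and 21.1 CPM (median 16.4) in female BAT sham, against 9.53, 31.9, 37.0, 75.0 and 106 CPM in female SAT sham. It was lower in BAT, at a log2 fold change of -1.65 in females (SE 0.43, adjusted p 0.00487) and -1.40 in males (SE 0.23, adjusted p 5.63e-05). The one SAT library below the BAT values was that of animal 8. Sqle, the monooxygenase that acts on squalene, did not pass in females (log2 fold change -0.18, SE 0.28) or in males (-0.20, SE 0.57).

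The regulators Insig1 and Insig2, which retain SCAP in the endoplasmic reticulum, were higher in female BAT than in female SAT. Insig1 ran between 340 and 648 CPM (median 524) in female BAT sham, against 83.9, 106, 129, 139 and 144 CPM in female SAT sham. The groups were far apart, with a log2 fold change of 2.09 (SE 0.22, adjusted p 7.71e-07). Srebf2 did not pass in females (-0.42, SE 0.26) or in males (-0.28, SE 0.26). Among the carriers, Npc1, which moves cholesterol out of lysosomes, was lower in BAT in both sexes, and its partner Npc2 was lower in females (-0.79, SE 0.20). In males Npc2 did not pass (-1.12, SE 0.64) with all libraries of the fit. Without male VAT sham animal 11, which is in that fit, Npc2 was lower in male BAT (-1.20, SE 0.23, edgeR adjusted p 0.00029). In males Insig1 did not pass (0.13, SE 0.40). The Npc1 call in females ended in 10 of 17 fits that each left out 1 library, and with a block for the animal (adjusted p 0.0809), and the male one ended in 2 of 18 fits (adjusted p 0.0744 without SAT sham animal 1).

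Scarb1 and Mylip were lower in BAT in both sexes, and Abca1 and Abcg1 were lower in males. Scarb1, which takes cholesteryl ester from high-density lipoprotein, ran between 30.3 and 65.6 CPM (median 57.2) in male BAT sham, against 151 to 303 CPM (median 260) in male SAT sham. The groups did not overlap, and Scarb1 was lower in BAT, at -2.19 on the log2 scale (SE 0.20, adjusted p 7.27e-08). In females it was also lower, at -1.46 (SE 0.35, adjusted p 0.00233). Mylip, the ligase that targets lipoprotein receptors for degradation, was lower in males (-2.10, SE 0.27) and in females (-1.80, SE 0.45). Abca1, which loads cholesterol onto apolipoprotein A-I, was lower in males (-1.85, SE 0.25, adjusted p 7.30e-06) and in females (-1.56, SE 0.62, adjusted p 0.0468), where the call ended in 13 of 17 leave-one-out fits and with the animal block (adjusted p 0.0920). Abcg1, which passes cholesterol to high-density lipoprotein, was lower in males (-1.47, SE 0.18) and did not pass in females (-0.57, SE 0.41). Nr1h3, the liver X receptor alpha gene, was higher in BAT in females (1.38, SE 0.30) and in males (0.99, SE 0.30). Soat1, which esterifies cholesterol for storage, was higher in female BAT (1.12, SE 0.39) and did not pass in males. The female call ended in 2 of 17 leave-one-out fits (adjusted p up to 0.0558).

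Of 25 other sterol genes, 8 were higher and 4 lower in BAT than in SAT in females, and 6 higher and 8 lower in males. Acss2, which makes acetyl-CoA from acetate, led in females at 3.27 (SE 0.35), and Stard5, a sterol carrier, was higher by 1.99 (SE 0.34). Cyp7b1, which hydroxylates oxysterols, was lowest in females at -2.17 (SE 0.51). Other cell types moved with this contrast. The mammary epithelium markers summed to between 1.29 and 4.53 CPM in female BAT sham and between 4865 and 27103 CPM in female SAT sham, with all 8 markers lower in BAT and 3 of them at 0 in every BAT library. The adipocyte markers summed to between 10197 and 21364 CPM (median 13986) in female BAT sham and between 3203 and 67859 CPM (median 6098) in female SAT sham. In males the mammary sum was between 1.77 and 4.24 CPM in BAT sham and between 10.1 and 273999 CPM in SAT sham. The part of cell makeup in these results was not tested, and in bulk tissue fewer cells of a type and less RNA per cell cannot be told apart. Without animal 8, 23 members were called in the female contrast in place of 16, while the share of all genes called was 61.6% in place of 47.6%, and 15 of them were the same genes as with it. Without female BAT sham animal 2, 11 members were called, and the share of all genes in that fit is not given here.

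Set against visceral fat, brown fat was lower for Scarb1 and Abcg1 in both sexes and higher for Soat1 in both. Scarb1 ran between 27.5 and 92.3 CPM (median 38.2) in female BAT sham, against 96.0 to 218 CPM (median 170) in female VAT sham. The groups did not overlap, at a log2 fold change of -1.65 (SE 0.34, adjusted p 0.00177). In males Scarb1 was lower in BAT at -2.21 (SE 0.20, adjusted p 8.12e-08). Abcg1 ran between 26.8 and 189 CPM (median 62.5) in female BAT sham, against 217 to 456 CPM (median 275) in female VAT sham. It was lower in BAT, at -2.01 in females (SE 0.41, adjusted p 0.00168) and -1.39 in males (SE 0.17, adjusted p 3.77e-06). Soat1 was higher by 1.49 in females (SE 0.37) and by 1.26 in males (SE 0.34). The cell markers moved with this contrast. In females the adipocyte sum was between 10197 and 21364 CPM in BAT sham, against 25810 to 38185 CPM in VAT sham, with 6 of 7 markers lower by their medians. The mesothelium sum was between 0 and 1.34 CPM in female BAT sham, against 51.2 to 481 CPM in female VAT sham, and the steroid-making cell sum was between 14.5 and 28.9 CPM in BAT sham, against 122 to 358 CPM in VAT sham. The skeletal muscle sum was between 294 and 20715 CPM in female BAT sham, against 23.5 to 699 CPM in female VAT sham. The part of these cells in the contrast was not tested.

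In this contrast 1 member was higher and 4 were lower in females, against 14.3% and 11.2% of genes, 25.5% in all. In males 5 were higher and 7 lower, against 26.5% and 23.3% of genes, 49.8% in all. Cyp51, the lanosterol demethylase, and Ebp, the sterol isomerase, were the other lower genes in females, at -0.76 (SE 0.21) and -0.98 (SE 0.16). Ebp was also called in males (-1.43, SE 0.50, adjusted p 0.0233), but without male VAT sham animal 11 its log2 fold change was -0.35 and the call ended, as it did with the animal block (-0.84, adjusted p 0.156). Animal 11 had 156 CPM of Ebp, and the other male VAT sham libraries ran between 15.7 and 24.2 CPM. Acat2 and Hmgcs1 were higher in male BAT than in male VAT, by 2.13 (SE 0.22, adjusted p 2.77e-07) and 1.38 (SE 0.28, adjusted p 0.000509), as were Hsd17b7 (1.02, SE 0.35) and Nsdhl (0.63, SE 0.13). The Hsd17b7 call ended in 4 of 18 leave-one-out fits. Mylip (-1.49, SE 0.26), Dhcr7 (-0.92, SE 0.22), Abca1 (-0.77, SE 0.24) and Scap (-0.32, SE 0.11) were lower in male BAT. In females Hmgcs1 differed by 0.11 (SE 0.25, adjusted p 0.795) and was not called, nor were Sqle (0.25, SE 0.27), Srebf2 (-0.24, SE 0.25), Insig1 (-0.48, SE 0.20) and Abca1 (-0.99, SE 0.59). In males Sqle (-1.29, SE 0.57), Srebf2 (-0.27, SE 0.26) and Insig1 (-0.39, SE 0.40) did not pass. Of the 25 other sterol genes, 4 were higher and 4 lower in females, and 8 were higher and 6 lower in males. Nceh1, a cholesteryl ester hydrolase, was highest in both, at 3.44 (SE 0.34) in females and 3.19 (SE 0.36) in males. The sexes did not differ past the threshold for any member in this contrast, where 0.450% of genes did. At an unadjusted p under 0.05 there were 6 members, against 8.72% of genes, and DESeq2 called 1, Nsdhl, with a male minus female difference of 1.06, against 1.39% of genes. By edgeR the smallest p values were for Nsdhl (1.05, SE 0.31), Hmgcs1 (1.19, SE 0.38), Cyp51 (0.68, SE 0.25), Acat2 (1.44, SE 0.57) and Sqle (-1.61, SE 0.65). Insig1 (0.01), Srebf2 (-0.10), Abca1 (0.15), Abcg1 (0.54) and Scarb1 (-0.63) had unadjusted p values above 0.05.

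**Figure D2:**
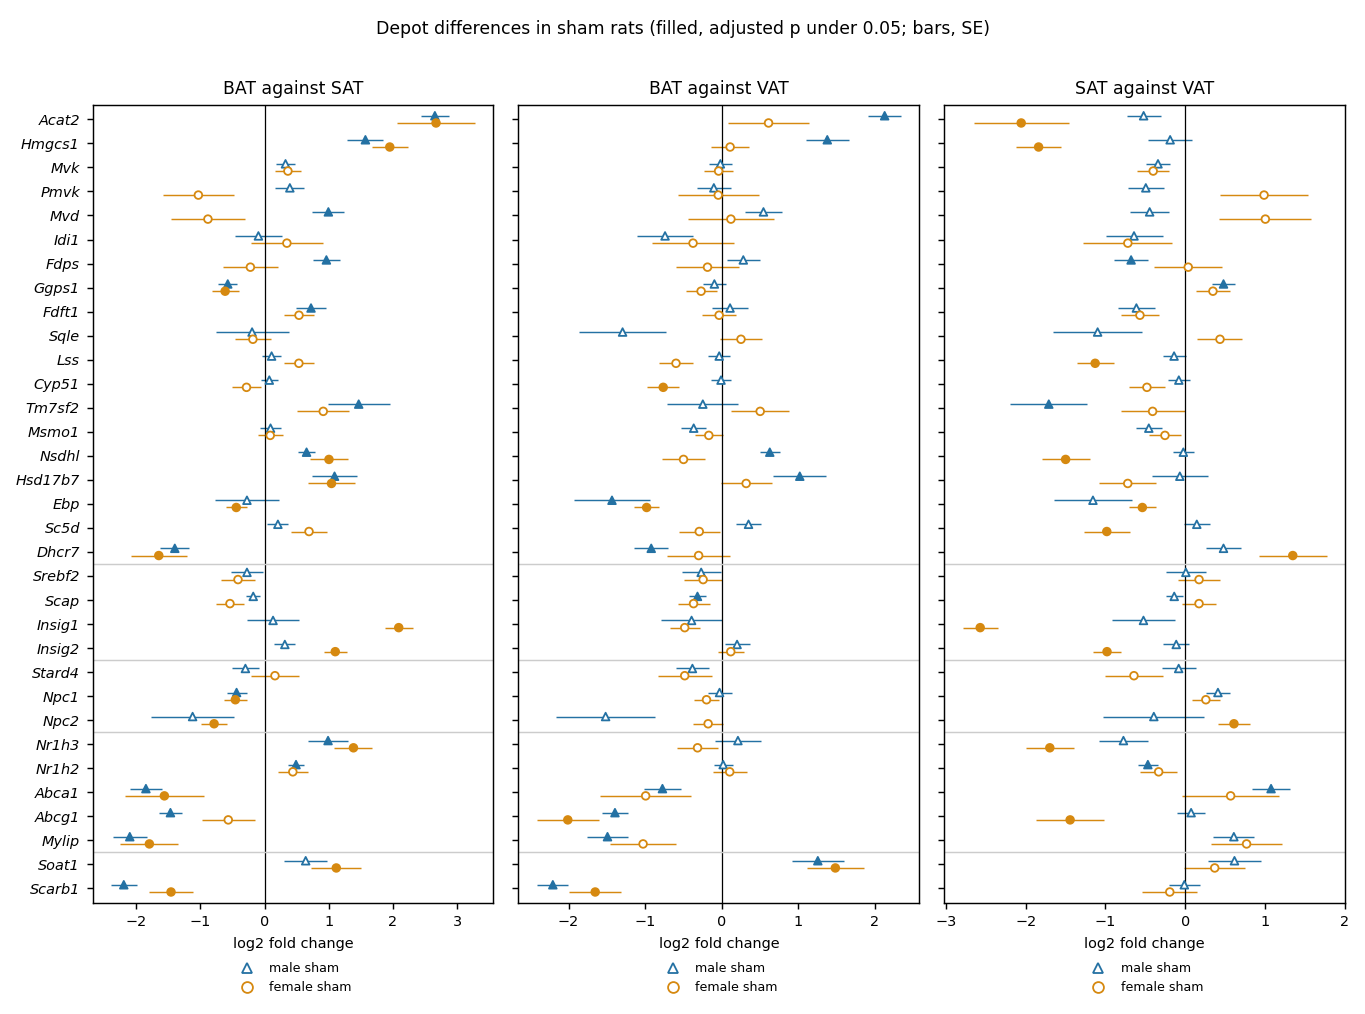
Log2 fold change of the 33 members between depots in male (triangles) and female (circles) sham rats, with bars for the SE; filled symbols passed an adjusted p of 0.05. Acat2 and Hmgcs1 lie right of 0 and Abca1, Mylip and Scarb1 left of it in the first panel, and Insig1 in the last panel lies far left in females.

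Subcutaneous against visceral fat gave the most members that differed between the sexes, and also the most genes over all those tested. In females 2 members were higher and 10 lower in SAT, against 23.2% and 16.5% of genes, 39.7% in all. In males 2 were higher and 3 lower, against 12.4% and 10.6% of genes, 23% in all. Insig1 in female SAT sham lay between 83.9 and 144 CPM, against 530 to 938 CPM (median 709) in female VAT sham, at a log2 fold change of -2.57 (SE 0.22, adjusted p 2.21e-07). In male SAT sham Insig1 ran between 52.5 and 473 CPM (median 312), against 305 to 521 CPM (median 399) in male VAT sham. The male groups overlapped, and the difference of -0.52 (SE 0.40) did not pass. Hmgcs1 was lower in female SAT, at -1.84 (SE 0.28, adjusted p 6.88e-05), and differed by -0.19 in males (SE 0.27). Also lower in female SAT were Acat2 (-2.06), Nr1h3 (-1.70), Nsdhl (-1.50), Abcg1 (-1.44), Lss (-1.13), Sc5d (-0.98), Insig2 (-0.98) and Ebp (-0.54). Sqle (0.44, SE 0.28), Srebf2 (0.17, SE 0.26), Abca1 (0.57, SE 0.61) and Scarb1 (-0.19, SE 0.34) did not pass in females. Lss closes the sterol ring system and Sc5d adds a double bond near the end of the pathway. Dhcr7 (1.35) and Npc2 (0.61) were higher in female SAT, and with the animal block their adjusted p values were 0.0810 and 0.0779. Male Npc2 did not pass (-0.39, SE 0.63), but without VAT sham animal 11 it was higher in SAT (1.36, SE 0.24, edgeR adjusted p 0.00131). In males the lower genes were Tm7sf2, a sterol reductase (-1.71, SE 0.48), Fdps (-0.68) and Nr1h2 (-0.47), and Ggps1 (0.48) and Abca1 (1.08) were higher. The Fdps call ended with the animal block (adjusted p 0.0638) and in 4 of 18 leave-one-out fits, and without VAT sham animal 11 its log2 fold change was -0.37 (adjusted p 0.0472). The Ggps1 call also ended in 4 of 18 such fits (adjusted p up to 0.0651). Sqle (-1.10, SE 0.56), Srebf2 (0.01, SE 0.25), Abcg1 (0.07, SE 0.17) and Scarb1 (-0.01, SE 0.19) did not pass in males. Of the 25 other sterol genes, 3 were higher and 8 lower in females, and 6 were higher and 0 lower in males. Acss2 was lower in female SAT (-2.29, SE 0.33) and higher in male SAT (1.64, SE 0.40). Male VAT sham animal 11 had 46.2 CPM of Tm7sf2, against 4.55 to 10.8 CPM in the other 5, and without it the log2 fold change was -0.74 and stayed called.

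The difference between the sexes was tested directly. The SAT minus VAT log2 difference was higher (less negative or positive) in males than in females for 7 members, against 8.77% of genes in that direction and 20.7% in either. Taken in either direction, the share of members called was close to that of all genes. The male minus female values were 2.04 for Insig1, 1.65 for Hmgcs1, 1.52 for Abcg1, 1.48 for Nsdhl, 1.13 for Sc5d, 1.00 for Lss and 0.87 for Insig2. Sqle (-1.51), Srebf2 (-0.15), Abca1 (0.52) and Scarb1 (0.19) did not pass. None of the 7 calls ended when any 1 of the 35 libraries was left out. In the BAT against SAT contrast the same test called Insig1 (-2.03) and Insig2 (-0.87), against 2.40% of genes lower and 5.75% in either direction. With the animal block neither passed, at -1.83 for Insig1 (adjusted p 0.0572) and -0.88 for Insig2 (adjusted p 0.0579). The Insig2 call also ended in 2 of 35 leave-one-out fits (edgeR adjusted p up to 0.0564). Mvd (1.78, SE 0.64), Fdps (1.09, SE 0.48) and Pmvk (1.33, SE 0.60) came next without passing, and Hmgcs1 (-0.46), Sqle (-0.10), Srebf2 (0.05), Abca1 (-0.37), Abcg1 (-0.98) and Scarb1 (-0.82) did not pass. The adipocyte markers moved with this. All 7 had a lower median in SAT than in VAT in both sexes, and their sum was between 3203 and 67859 CPM (median 6098) in female SAT sham and between 2351 and 21046 CPM (median 17864) in male SAT sham. Male SAT sham animals 1 and 11, the lowest for Insig1 at 74.2 and 52.5 CPM, had the largest mammary epithelium sums at 273999 and 207883 CPM. The part of these markers in the difference was not tested. Without female SAT sham animal 8, which held the adipocyte sum of 67859 CPM, 20 members were called in the female contrast, against 49.9% of all genes, and 11 in the sex difference, against 20.9% of all genes.

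The 2 sexes were then compared within each depot of sham rats. In visceral fat, 5 synthesis enzymes and Insig1 were lower in males, and Scarb1 was higher. That is 6 lower members, against 5.34% of genes, and 1 higher, against 6.19%, with 11.5% called in all. Acat2 ran between 13.7 and 21.6 CPM (median 18.98) in male VAT sham, against 30.0 to 59.1 CPM (median 44.0) in female VAT sham. The groups did not overlap, with a log2 fold change of -1.26 (SE 0.16, adjusted p 0.000468). Nsdhl ran between 17.8 and 23.01 CPM (median 20.1) in male VAT sham, against 31.9 to 69.7 CPM (median 38.4) in female VAT sham. It was lower at -1.04 (SE 0.17, adjusted p 0.00245), also without overlap. Hmgcs1 ran between 117 and 197 CPM (median 125) in male VAT sham, against 195 to 354 CPM (median 294) in female VAT sham. It was lower at -1.004 (SE 0.18, adjusted p 0.00352), with 1 male library just above the lowest female one. Sc5d (-0.87, SE 0.17), Insig1 (-0.80, SE 0.18) and Cyp51 (-0.63) were also lower in males.

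Scarb1 ran between 192 and 320 CPM (median 252) in male VAT sham, against 96.0 to 218 CPM (median 170) in female VAT sham. It was higher in males by 0.62 (SE 0.19, adjusted p 0.0459), and the call ended in 8 of 12 leave-one-out fits. Sqle did not pass (1.54, SE 0.65, adjusted p 0.145). Its male values ran between 8.67 and 10.9 CPM apart from animal 11 at 107 CPM, against 6.33 to 11.4 CPM in female VAT sham. Srebf2 (0.07), Abca1 (-0.41) and Abcg1 (-0.49) did not pass either, though without male animal 11 Abca1 was -0.67 and passed (adjusted p 0.0447). Among the 25 other sterol genes 1 was higher and 4 were lower in male VAT, with Acly, the citrate lyase that makes acetyl-CoA in the cytosol, at -2.24 and Acss2 at -1.12. The steroid-making cell markers, 5 genes, summed to between 11.2 and 30.8 CPM in male VAT sham and between 122 and 358 CPM in female VAT sham. Epididymis markers, a list added after the values were seen, summed to 4918 CPM for animal 11 in male VAT sham, where the median was 14.4 CPM. In male VAT PCB 52 the sum ran between 0 and 3198 CPM (median 0.133), and in female VAT sham it was 0.260 CPM or less. The part of either marker list in the sex difference was not tested. Without animal 11, 11 members were called, the 7 above among them, against 12% of all genes.

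In brown fat no member passed between the sexes, against 0.0652% of genes. Insig1 came nearest, with 234 to 385 CPM (median 276) in male BAT sham, against 340 to 648 CPM (median 524) in female BAT sham. Its log2 fold change was -0.80 (SE 0.15, adjusted p 0.109), and DESeq2 called it at an adjusted p of 0.00033. At an unadjusted p under 0.05 there were 3 members, against 6.78% of genes. Sc5d (-0.31, SE 0.12), Insig2 (-0.20, SE 0.08), Soat1 (-0.47, SE 0.25) and Dhcr7 (-0.35, SE 0.19) were next. Hmgcs1 (0.18), Sqle (-0.09), Srebf2 (-0.04), Abca1 (-0.28), Abcg1 (0.03) and Scarb1 (-0.02) did not pass. In subcutaneous fat no member passed either, against 1.09% of genes, with 6 members at an unadjusted p under 0.05, against 19.6% of genes. Abcg1 ran between 196 and 279 CPM (median 226) in male SAT sham, against 65.6, 77.8, 107, 145 and 179 CPM in female SAT sham. The groups did not overlap, and the edgeR adjusted p was 0.0901 at a log2 fold change of 1.03 (SE 0.27). DESeq2 called Abcg1 (adjusted p 0.00461) and Scarb1 (adjusted p 0.0423) in this comparison. Scarb1 was 0.81 (SE 0.27), Insig2 0.68 (SE 0.28), Mvd -1.70 (SE 0.71) and Insig1 1.24 (SE 0.54) by edgeR, without passing. Hmgcs1 (0.64), Sqle (0.01), Srebf2 (-0.10) and Abca1 (0.10) did not pass. Of the other sterol genes Acss2 was higher in males (2.80, SE 0.58).

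**Figure D3:**
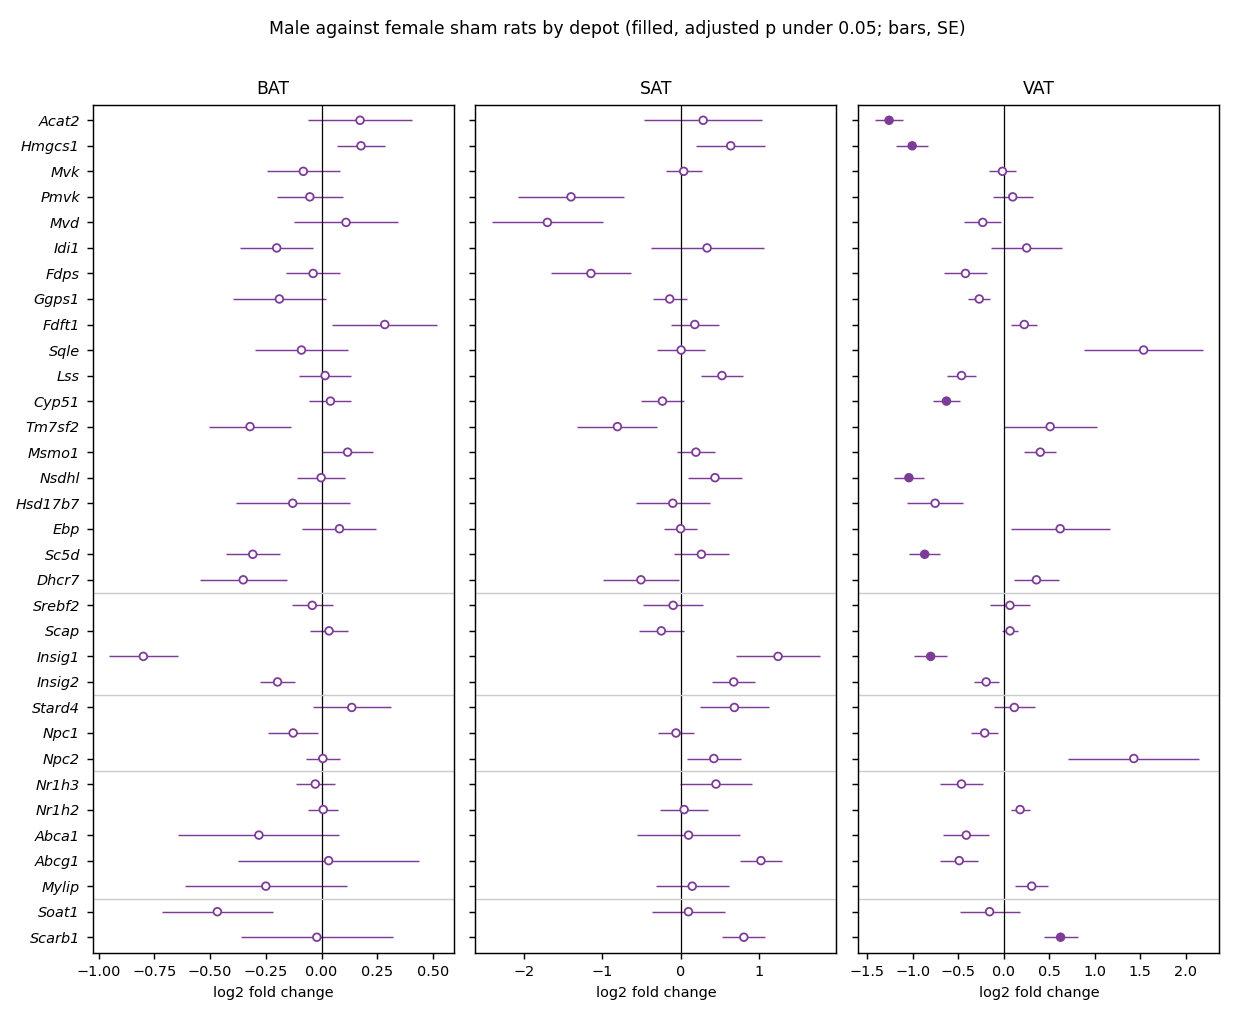
Log2 fold change of the 33 members between male and female sham rats in each depot, with bars for the SE; filled symbols passed an adjusted p of 0.05. The filled points are in VAT, where Acat2, Hmgcs1, Cyp51, Nsdhl, Sc5d and Insig1 lie left of 0 and Scarb1 right of it.

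PCB 52 against sham is the comparison the exposure was designed for. No member passed an adjusted p of 0.05 in any of the 6 tables, where 0% of genes passed. At an unadjusted p under 0.05 there were 4 members in female BAT, against 3.63% of genes, 0 in female SAT (5.12%), 7 in female VAT (9.57%), 5 in male BAT (9.86%), 12 in male SAT (1.44%) and 2 in male VAT (6.30%). With both sexes fitted together no member passed in any depot, against 0.00906% of genes in BAT and 0% in SAT and VAT. The interaction of sex and treatment called no member in any depot, against 0% of genes. At an unadjusted p under 0.05 it held 0 members in BAT, against 2.41% of genes, 11 in SAT (6.51%) and 1 in VAT (10.7%). DESeq2 called no member in it, but gave no adjusted p for 13 members in SAT and 3 in VAT. In BAT the smallest p values were for Ggps1 (0.48), Insig1 (0.33), Lss (-0.18), Fdft1 (-0.27) and Abcg1 (0.48), and Hmgcs1 (0.02), Sqle (-0.17), Srebf2 (0.02), Abca1 (0.31) and Scarb1 (0.15) followed, with SEs between 0.13 and 0.58 in these 10.

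In brown fat Nsdhl, the C4 demethylation enzyme, came nearest to the threshold. It ran between 34.8 and 41.2 CPM (median 37.3) in female BAT PCB 52, against 25.5 to 34.1 CPM (median 30.1) in female BAT sham. These groups did not overlap, which was so for 0.0655% of genes in this direction. In males it ran between 32.1 and 42.2 CPM (median 37.2) in PCB 52 libraries, against 22.6 to 33.6 CPM (median 30.9) in sham libraries. Over both sexes the log2 fold change was 0.30 (SE 0.06, edgeR adjusted p 0.13), and DESeq2 called it at an adjusted p of 0.0112. Nr1h2, the liver X receptor beta gene, had a log2 fold change of -0.22 (SE 0.06, edgeR adjusted p 0.151), with a DESeq2 adjusted p of 0.0203. DESeq2 called 86 genes in that comparison, and edgeR 1. Dhcr7 (0.42, SE 0.15), Cyp51 (0.20, SE 0.09) and Sc5d (0.22, SE 0.10) followed, with edgeR adjusted p values of 0.274, 0.412 and 0.438. Within females the next smallest p values after Nsdhl were for Nr1h2 (-0.21, SE 0.08), Soat1 (-0.48, SE 0.20), Cyp51 (0.27, SE 0.11) and Dhcr7 (0.43, SE 0.23). Within males they were for Ggps1 (0.41, SE 0.16), Nr1h2 (-0.24, SE 0.09), Dhcr7 (0.42, SE 0.18) and Abcg1 (0.54, SE 0.25).

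Hmgcs1 in female BAT ran between 136 and 485 CPM (median 411) with PCB 52, against 258 to 360 CPM (median 308) in sham. Animal 24 held the value of 136 CPM, and its brown adipocyte sum was the lowest of the group. The log2 fold change was 0.27 (SE 0.24) with it and 0.44 (SE 0.11) without it, and neither passed. In males Hmgcs1 was 0.30 (SE 0.16). Sqle (-0.01, SE 0.12), Srebf2 (-0.03, SE 0.06) and Insig1 (0.05, SE 0.13) gave small differences over both sexes. In females Sqle was 0.06, Srebf2 -0.04 and Insig1 -0.13, and in males they were -0.09, -0.01 and 0.22. Over both sexes Abca1 was 0.30 (SE 0.28), Abcg1 0.30 (SE 0.26) and Scarb1 0.21 (SE 0.29). Animal 24 held 108 CPM of Abca1 and 124 CPM of Scarb1, above all other 11 female BAT libraries. In females Scarb1 was 0.12 with it and -0.27 without it, Abca1 was 0.14 and -0.27, and Abcg1 was 0.05 with it and close to 0 without it. In males Abca1 was 0.46 (SE 0.28) and Scarb1 0.29 (SE 0.33), and none of these passed.

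In visceral fat none of the synthesis enzymes passed in females. Of the 19 enzymes, 17 had a positive log2 fold change, with a median of 0.32, beside 0.01 over all genes. In male VAT 12 of 19 were positive, with a median of 0.11, beside -0.03 over all genes. The enzymes were measured in the same libraries, so these counts are not of independent values. Fdft1, squalene synthase, led in females at 0.51 (SE 0.16, adjusted p 0.479). Lss ran between 86.0 and 121 CPM (median 97.5) in female VAT PCB 52, against 61.0 to 94.4 CPM (median 76.6) in female VAT sham. Its log2 fold change was 0.38 (SE 0.12, adjusted p 0.479), and the groups overlapped. Sc5d ran between 35.9 and 55.0 CPM (median 45.2) in female VAT PCB 52, against 31.2 to 40.2 CPM (median 34.9) in sham. Its difference was 0.36 (SE 0.12). Cyp51 was 0.47 (SE 0.17). Abcg1 ran the other way, between 98.9 and 259 CPM (median 203) with PCB 52, against 217 to 456 CPM (median 275) in sham, at -0.65 (SE 0.24). Hmgcs1 (-0.21, SE 0.17), Sqle (0.19, SE 0.16), Insig1 (0.40, SE 0.21), Srebf2 (-0.19), Abca1 (-0.18) and Scarb1 (0.24) had unadjusted p values above 0.05.

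In male VAT the members with the smallest p were Insig1 (0.40, SE 0.18), Lss (0.35, SE 0.16), Sc5d (0.41, SE 0.19), Cyp51 (0.30, SE 0.15) and Abcg1 (0.32, SE 0.18), each with an adjusted p of 0.747. Hmgcs1 (0.21, SE 0.16), Sqle (-0.58, SE 0.88), Srebf2 (0.11, SE 0.24), Abca1 (0.09, SE 0.29) and Scarb1 (-0.19, SE 0.16) had unadjusted p values above 0.05. Insig1 measured 441, 482, 508, 515 and 723 CPM in male VAT PCB 52, against 305 to 521 CPM (median 399) in sham. Over both sexes Lss was 0.37 (SE 0.10, adjusted p 0.475), Sc5d 0.38 (SE 0.11, adjusted p 0.475), Cyp51 0.39 (SE 0.12, adjusted p 0.517) Insig1 0.40 (SE 0.14, adjusted p 0.595) and Fdft1 0.32 (SE 0.11, adjusted p 0.595). Hmgcs1 (-0.01), Sqle (-0.18), Srebf2 (-0.04), Abca1 (-0.05), Abcg1 (-0.19) and Scarb1 (0.04) had unadjusted p values above 0.05. Without animals 11 and 13, Sc5d was 0.41 (adjusted p 0.197), Cyp51 0.43 (adjusted p 0.241) and Lss 0.37 (adjusted p 0.241). Abcg1 differed in sign between the sexes, at -0.65 in females and 0.32 in males, and the interaction of 0.97 (SE 0.32) had an adjusted p of 0.405. Pmvk (-0.63), Ebp (-1.78), Fdft1 (-0.40), Scarb1 (-0.43), Hmgcs1 (0.41), Sqle (-0.77), Insig1 (-0.01), Srebf2 (0.29) and Abca1 (0.28) gave interactions with unadjusted p values above 0.05. In male VAT, animal 13 had 0 counts of Ebp and Nsdhl, and sham animal 11 had the 156 CPM of Ebp. Ebp was -1.53 with all libraries, -0.37 without animal 11, -1.20 without animal 13 and -0.05 without both. Nsdhl was -0.16 with all libraries, -0.12 without animal 11, 0.16 without animal 13 and 0.20 without both.

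**Figure D4:**
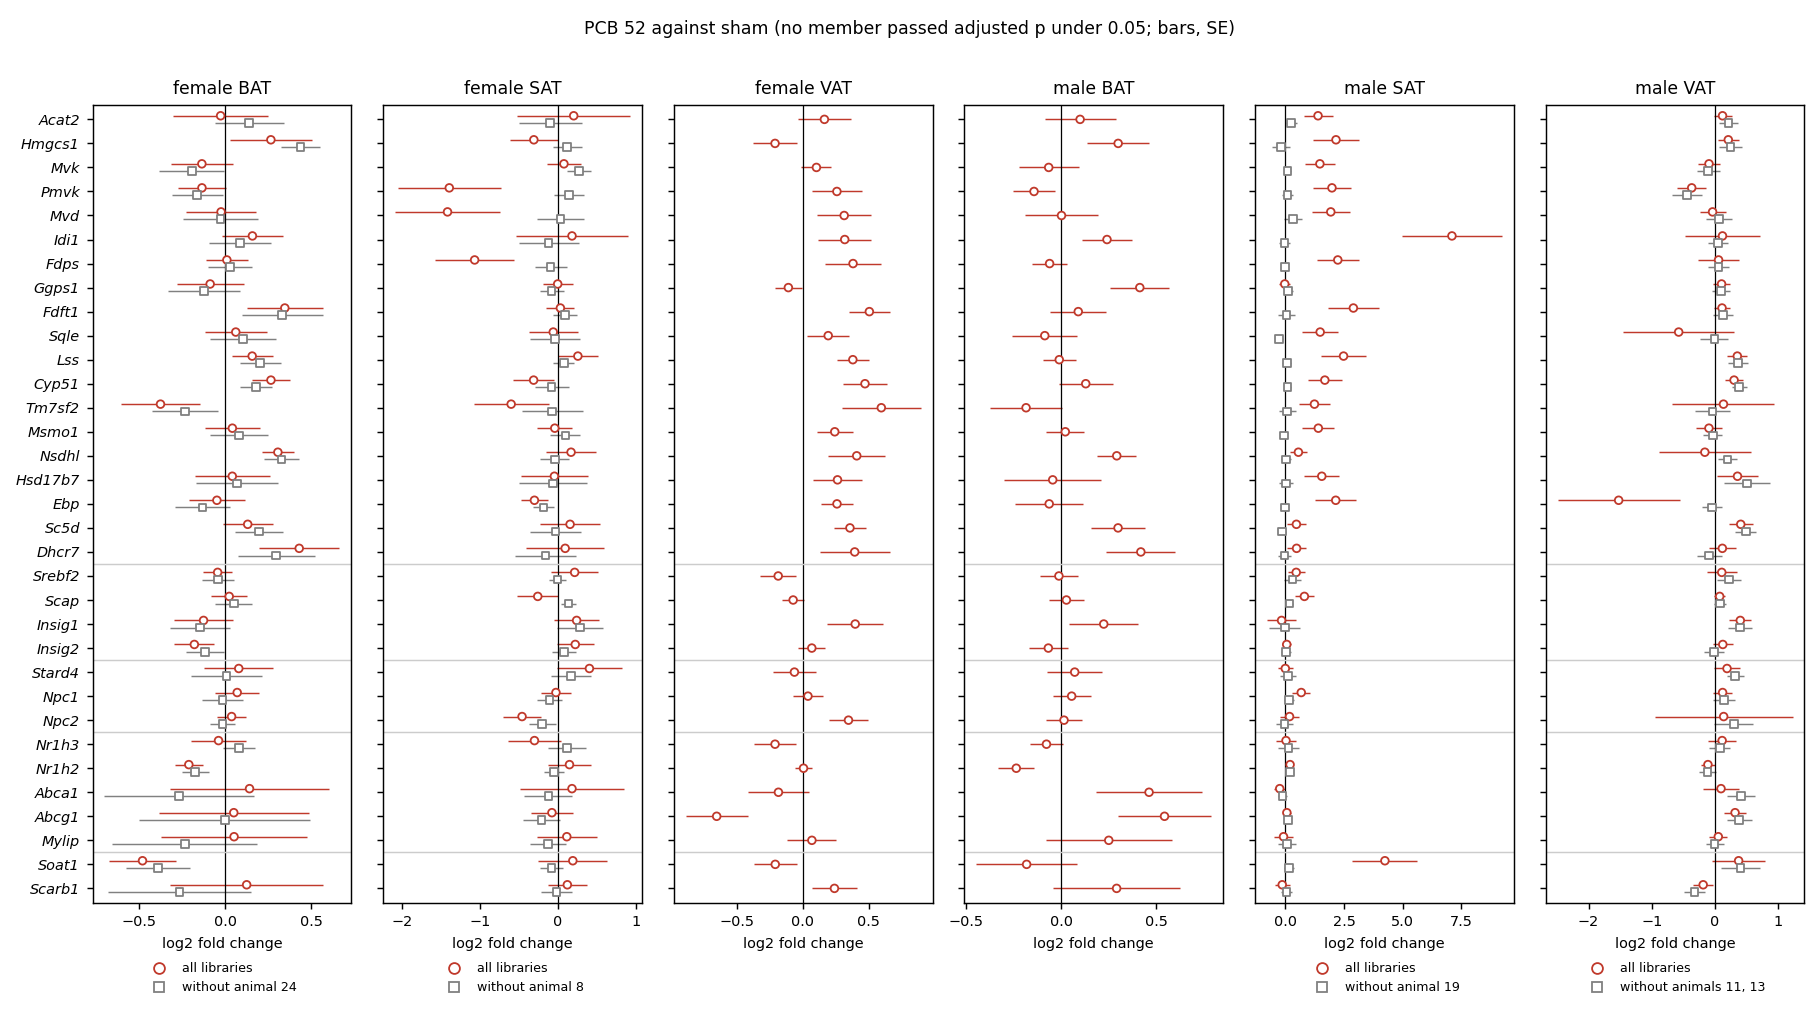
Log2 fold change of the 33 members with PCB 52 against sham in each depot and sex, with bars for the SE; grey squares leave out the named libraries. Panels have their own horizontal scales, and in male SAT the points right of 0 return close to it when animal 19 is left out.

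In male SAT the PCB 52 values turned on a single library. Idi1, the isomerase that starts isoprenoid assembly, measured 10372 CPM in animal 19, against a range of 7.77 to 16.8 CPM (median 10.7) in the other 11 male SAT libraries, a ratio of 968 to their median. Soat1 measured 2148 CPM in it, against 13.2 to 31.3 CPM (median 19.1), a ratio of 112. Fdft1 at 1629 CPM was 42.2 times the others' median, Lss at 1516 CPM was 30.1 times, and Fdps, which makes farnesyl diphosphate, at 959 CPM was 25.7 times. In all, 18 of 19 synthesis enzymes were above all 11 others, with a median ratio of 15.4, and Ggps1 was below them at 8.95 CPM. Scap was above them at 449 CPM, 4.92 times their median, and Srebf2 at 160 CPM lay just above their highest of 154 CPM. Insig1 lay within their range at 141 CPM. Abca1 at 76.6 CPM and Scarb1 at 82.1 CPM were below all 11, and Abcg1, Mylip and Nr1h3 lay within.

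**Figure D5:**
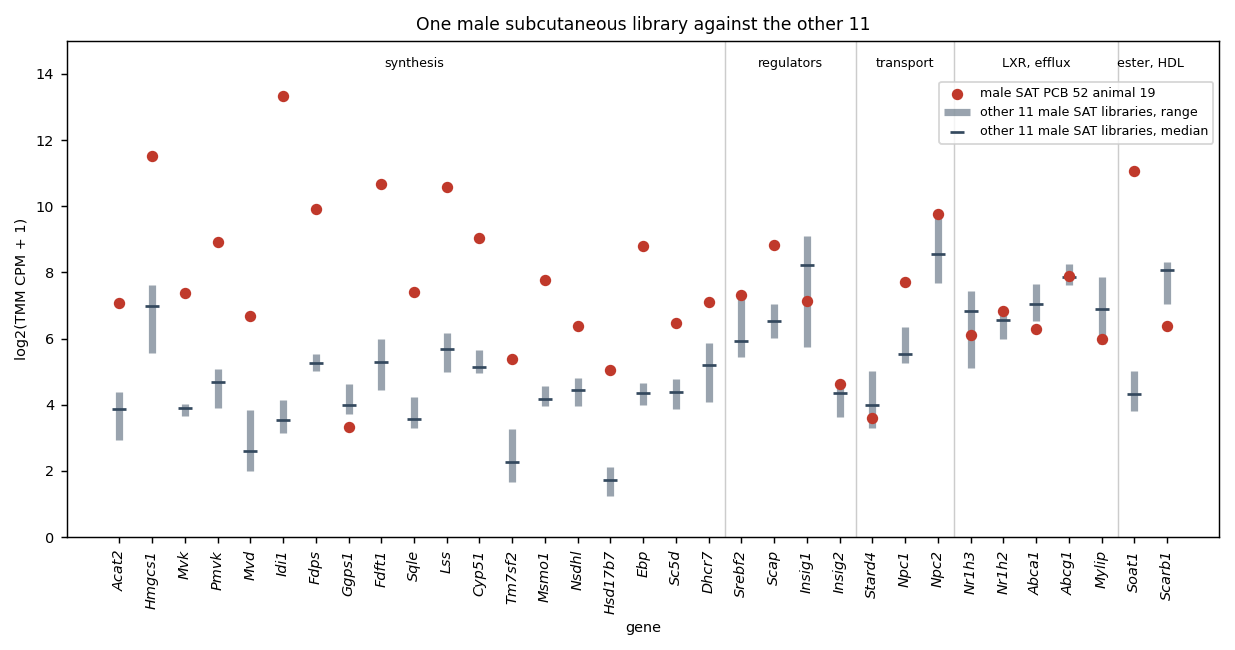
Level of the 33 members in male SAT PCB 52 animal 19 (red points) and the range and median of the other 11 male SAT libraries (bars), as log2(TMM CPM + 1). Idi1 and Soat1 lie furthest above the bars, Ggps1, Abca1 and Scarb1 lie below them, and 5 members lie within.

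The markers of other tissues in animal 19 were as far apart. The sebaceous or preputial gland list summed to 60736 CPM in it, against a male SAT sham range of 173 to 1033 CPM, and the keratinocyte list summed to 2957 CPM, against 6.84 to 89.4 CPM. Its adipocyte sum was 2512 CPM, against 2351 to 21046 CPM in male SAT sham. The part of such cells in its sterol genes was not tested. With it, the log2 fold change in male SAT was 7.10 for Idi1 (SE 2.13), 4.24 for Soat1 (SE 1.38), 2.90 for Fdft1 (SE 1.10) 2.48 for Lss (SE 0.95), 2.23 for Fdps (SE 0.90) and 2.16 for Hmgcs1 (SE 0.98), none past the threshold. Sqle was 1.48 (SE 0.76), Srebf2 0.46, Insig1 -0.16, Abca1 -0.24, Abcg1 0.07 and Scarb1 -0.13. The median over the 33 members was 0.81 with animal 19 and 0.06 without it, and 0 members had an unadjusted p under 0.05 without it. In the fit of both sexes the median was 0.35, and 0.02 without animals 19 and 8. The smallest p values in that fit were for Lss (1.42), Soat1 (2.28), Fdft1 (1.52), Mvk (0.82) and Idi1 (3.74), each with an adjusted p of 0.994. Hmgcs1 (0.98), Sqle (0.76), Srebf2 (0.35), Insig1 (0.04), Abca1 (-0.04), Abcg1 (0.004) and Scarb1 (-0.004) had unadjusted p values above 0.05. The interaction in SAT gave its smallest p values for Idi1 (6.90), Pmvk (3.33), Fdps (3.26), Mvd (3.30) and Soat1 (4.04), each with an adjusted p of 0.754. Without animals 19 and 8 these were 0.08, -0.06, 0.06, 0.26 and 0.22. Hmgcs1 (2.43), Sqle (1.52), Insig1 (-0.42), Srebf2 (0.23), Abca1 (-0.42), Abcg1 (0.13) and Scarb1 (-0.26) did not pass in it.

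In female SAT the members with the smallest p were Pmvk (-1.40, SE 0.66), Fdps (-1.07, SE 0.51), Mvd (-1.42, SE 0.68), Npc2 (-0.46, SE 0.25) and Ebp (-0.30, SE 0.18), each with an adjusted p of 0.768. Pmvk, Mvd and Fdps act in the mevalonate and farnesyl steps. Animal 8 in the sham group held 233 CPM of Pmvk, 250 CPM of Fdps and 64.9 CPM of Mvd, and without it their log2 fold changes were 0.14, -0.10 and 0.03. That library had 27.7% of its counts in ribosomal protein genes, and Acat2 and Idi1 were at 0 in it. Hmgcs1 (-0.31), Sqle (-0.06), Srebf2 (0.21), Insig1 (0.24), Abca1 (0.18), Abcg1 (-0.08) and Scarb1 (0.12) had SEs between 0.25 and 0.66 and did not pass.

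Covariation with Sqle was examined within groups for Hmgcs1, Insig1, Abca1 and Mylip in each depot, 12 relations in all, after each group's mean was removed. The male SAT library of animal 19 was left out. None passed on Pearson's r after Benjamini-Hochberg adjustment. The smallest adjusted permutation p was 0.126, for Insig1 in SAT (r = -0.38, rho = -0.40, n = 22) and for Mylip in VAT (r = 0.37, n = 23). For Mylip in VAT, Spearman's rho was 0.56 with an adjusted permutation p of 0.0409. Without the 2 libraries furthest out in Sqle, animals 11 and 13, r was 0.42. Within females r was 0.67 (n = 12) and within males 0.51 (n = 11), from libraries that share depth and tissue makeup.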

How the data were processed

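RNA was sequenced from about 100 mg of each depot, with poly(A) capture or rRNA removal and samples with an RNA integrity number under 8 left out, per the labels' protocols. The authors deposited raw read counts per gene in 6 tables; FastQC, HISAT2 and the rn6 build are named in the submitters' processing notes, and the sources used here give neither the counting program nor its use of strand. The deposited female VAT table was handled as estimated counts because 5 summary lines with no gene hold non-whole values; those lines were dropped, and every value for a gene was whole. Gene numbers matched a symbol for 15230 of 15319 genes. Promoter sequences are RefSeq's on GRCr8.

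Counts were filtered with filterByExpr, scaled by TMM and tested with edgeR 4.0.16 (robust quasi-likelihood F test, R 4.3.3), on all genes of each comparison, calling genes at a Benjamini-Hochberg adjusted p under 0.05. Depot contrasts and their sex differences used all sham libraries of the sexes concerned. Scripts were tested on simulated data. Printed CPM carry TMM factors over all 70 libraries. Correlations used log2 CPM (prior count 2) and 100000 permutations within groups. DESeq2 1.42.0, relative log expression scaling, no filter, a replicate block and leaving out each library were the alternatives; fits leaving out 2 libraries together were added after seeing the data. Members named in every comparison are Hmgcs1, Sqle, Insig1, Srebf2, Abca1, Abcg1 and Scarb1, with up to 6 called members each way, or the 5 with the smallest p where under 4 were called. The members and lists were chosen with earlier results of these data known. Library numbers 1 to 24 match the 24 rats in the labels, so equal numbers were read as one animal sampled in several depots. Deviations of same-numbered libraries from group means correlated weakly, and 28 of 68 pairs had r over 0.1. The median of the median r values by sex, depot pair and treatment was 0.0913, against -0.0282 for different numbers. The main depot fits hold no term for the animal and treat its libraries as independent, and the replicate block was an alternative only. Libraries of one group come from separate animals; no 2 libraries held identical counts.

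A total of 4604116 to 9707132 counts per library limits low genes, and intervals or floors would cover counting error only.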

Additional observations from a re-analysis of the deposited data

Results flagged for a closer look

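Within each group of 5 or 6 libraries, the highest or lowest library was compared with its nearest neighbour by Dixon's criterion, which chance meets in about 1 in 20 groups. It was met for 68 of 396 pairs of member and group, 59 times by the highest library and 9 times by the lowest. A single library could meet it for many members, as male SAT PCB 52 animal 19 did for 21, so the pairs are not independent. The rate over all genes is not given here, and the count is not read as a trait of the members. Values below are TMM-scaled CPM.

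Male SAT PCB 52 animal 19 was the high library for 21 members. They were Acat2 (135), Hmgcs1 (2950.3), Mvk (164), Pmvk (484), Mvd (101), Idi1 (10372), Fdps (959), Fdft1 (1629), Sqle (169.8), Lss (1516), Cyp51 (526), Tm7sf2 (40.6), Msmo1 (216), Nsdhl (81.7), Hsd17b7 (31.8), Ebp (448), Sc5d (88.4), Dhcr7 (136), Scap (449), Npc1 (210.4) and Soat1 (2148). Of these, 18 are enzymes of sterol synthesis.

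In visceral fat, male PCB 52 animal 13 was the high library for Idi1 (50.6), Fdps (110.0), Sqle (49.3), Lss (82.3), Tm7sf2 (47.3) and Npc2 (2169). Male sham animal 11 was high for Idi1 (50.7), Fdps (116), Sqle (107), Cyp51 (50.9), Tm7sf2 (46.2), Ebp (156), Stard4 (27.1) and Npc2 (2387). Idi1, Fdps, Sqle, Tm7sf2 and Npc2 are common to both. Epididymis markers summed to as much as 4918 CPM in male VAT sham and 3198 CPM in male VAT PCB 52, and their part was not tested. Female PCB 52 animal 20 was high for Pmvk (63.2), Msmo1 (32.1) and Npc2 (406) and low for Mylip (46.2). Female SAT sham animal 8 was high for Hmgcs1 (159), Pmvk (233), Mvd (64.9), Fdps (250.3) and Scap (195). Female BAT PCB 52 animal 24 was low for Hmgcs1 (136) and Nr1h3 (105).

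The other libraries stood out for 1 or 2 members. In BAT, the high ones were Stard4 in male PCB 52 animal 21 (15.4), Msmo1 in female PCB 52 animal 20 (26.3), Acat2 in male sham animal 1 (123), Lss in female sham animal 2 (69.3), Insig2 in female sham animal 8 (27.7) and Abcg1 in female sham animal 4 (189). The low ones were Srebf2 in male PCB 52 animal 23 (41.8), Stard4 in male sham animal 1 (7.71) and Nsdhl in male sham animal 9 (22.6). In SAT, the high ones were Sc5d in female PCB 52 animal 14 (34.8), Dhcr7 in female PCB 52 animal 24 (107), Mvd and Srebf2 in male sham animal 11 (10.2 and 131), Sqle in male sham animal 1 (17.9) and Hsd17b7 in female sham animal 2 (5.49). In VAT, the high ones were Insig1 in male PCB 52 animal 17 (723), Cyp51 and Nsdhl in female sham animal 2 (77.4 and 69.7) and Npc1 in female sham animal 12 (52.2). The low ones were Mvd in male PCB 52 animal 15 (5.38), Dhcr7 in female PCB 52 animal 18 (11.6) and Lss in male sham animal 7 (34.0).

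The depot differences of 9 gene and contrast pairs differed between the sexes by the edgeR test of that difference. For BAT against SAT the male minus female log2 differences were -2.03 for Insig1 and -0.87 for Insig2. For SAT against VAT they were 2.04 for Insig1, 1.65 for Hmgcs1, 1.52 for Abcg1, 1.48 for Nsdhl, 1.13 for Sc5d, 1.00 for Lss and 0.87 for Insig2. The contrasts share the SAT libraries. For BAT against SAT neither call held with the animal block, and the Insig2 call ended in 2 of 35 leave-one-out fits.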

How the results depend on the processing

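Under relative log expression scaling, with no filter on low counts and with the animal block, counts of called members stayed within 1.5 times the edgeR counts in the report, except that the block called 0 members in the sex difference of BAT against SAT, against 2 without it. Beyond the calls given in the report, the block ended that of Ebp in female BAT against SAT. DESeq2 called 2 members for PCB 52 over both sexes in BAT, against 86 of 11032 genes. Between depots it called 8 in female BAT against VAT (3680 of 11799 genes) and 9 in male SAT against VAT (3244 of 11580). In the sex difference of BAT against VAT it called 1 (170 of 12228). Between male and female sham rats it called 1 in BAT (62 of 10730) and 2 in SAT (925 of 11626). Under PCB 52 DESeq2 gave no adjusted p for 1 member in female SAT, 18 in male BAT, 16 in male SAT and 5 in male VAT. Over both sexes that held for 7 in BAT, 15 in SAT and 3 in VAT, and in the interaction for 13 in SAT and 3 in VAT. Such members could not be called in those fits. In the 6 tables and the interactions, 0 members were called for PCB 52 under any alternative run. No named result changed sign while called.

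With 1 library left out at a time, 11 to 23 members were called in female BAT against SAT, lowest without BAT sham animal 2. The counts were 5 to 9 in female BAT against VAT and 10 to 20 in female SAT against VAT. They were 7 to 11 in the sex difference of SAT against VAT and 0 to 1 in that of BAT against VAT. Each of these counts was highest without female SAT sham animal 8. Male SAT against VAT gave 3 without SAT animal 1, 8 without VAT animal 11 and 9 without SAT animal 3 or 9. The sex difference of BAT against SAT gave 1 without male SAT sham animal 3 or 5, and up to 3 otherwise. Between the sexes, VAT gave 6 to 11, highest without male animal 11, and BAT gave 0 to 1, with 1 without female animal 2. These counts stand here without the share of all genes called in each fit, so they are not read as particular to the members. Causes of the changes were not tested.

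Low-count members such as Hsd17b7 are limited by depth, and intervals of fold changes that include 0 do not show that levels were alike. Sex, age at the start of exposure and count table differ together and cannot be told apart.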
